A study of Mus musculus with 10 samples.

Results

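The genes described here are 10 that mark neutrophils: S100a8, S100a9, Cxcr2, Csf3r, Retnlg, Ngp, Ltf, Mmp8, Clec4d and Trem1. They were chosen by symbol among 19505 genes with a named probe set (a group of array probes that together give 1 signal), and each had 1 probe set. Whole back skin of C57BL/6J mice, 9 weeks old when the experiment began, was measured on 10 arrays. A silicon expander lay beneath the skin sampled for 8 of them. In the 4 expanded samples it was enlarged stepwise by injecting PBS, and in the 4 non-expanded samples it was implanted and received no PBS, and each arm has 1 array for day 0, 7, 14 and 21, counted in the labels of both arms from the end of filling. The other 2 arrays held skin of mice that had no surgery, 1 in telogen (hair at rest) and 1 in anagen (hair growing). The mice without surgery are given as wild-type, and no group has an altered allele in its labels. The labels do not say how many animals an array held, so every p-value measures only the spread between these arrays.

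Neutrophils are short-lived white blood cells made in bone marrow that leave the blood within hours of an injury or infection. Chemokines that bind the receptor Cxcr2 draw them into tissue, and the cytokine G-CSF, the product of Csf3, acts on the receptor Csf3r to increase their number. Their granule proteins are mostly transcribed while the cells mature in marrow, so a neutrophil that has reached the skin carries little messenger RNA for Ngp, Ltf or Camp, while S100a8, S100a9, Cxcr2, Csf3r and Retnlg messenger RNA persists. S100a8 and S100a9 are also made by keratinocytes of wounded or stressed epidermis, and Clec4d and Trem1 by monocytes and macrophages.

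Levels are log2 signals on the deposited scale. The array medians lay between 6.27 and 6.45, and the median of the 23 background probe sets (probes matching no transcript) was 5.46, used below as the level of background. Keratinocyte and fibroblast markers were high on every array, with list means from 13.41 to 15.75 and from 15.07 to 17.18. Of the 10 genes, 8 had a mean above the level filter of 4.86 and entered the tests among 13653 genes. Ngp and Ltf lay below it and are described by their values. In whole skin, fewer cells of a type and less RNA per cell cannot be told apart.

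Skin over an expander, filled or not, read higher than skin without surgery for most of these genes, and the 2 arms differed from each other in opposite directions on different days. The telogen and anagen arrays both lay below all 8 expander arrays for 5 of the 10 genes, S100a8, S100a9, Mmp8, Clec4d and Trem1, against 8.1% of all genes tested. They lay below all 4 non-expanded arrays for 8 of the 10, against 11.5% of genes tested, and below all 4 expanded arrays for 5, against 14.0%. For Mmp8 and Trem1, both arrays without surgery were under background. So were their lowest expander arrays, at 3.96 and 4.84, so their place in these counts rests on values without an order. The highest array was expanded skin at day 7 for 5 genes (S100a8, S100a9, Cxcr2, Mmp8 and Trem1), against 4.79% of genes tested. It was non-expanded skin at day 7 for Csf3r and Clec4d (2 of 10, against 10.3%) and at day 0 for Retnlg and Ngp (2 of 10, against 8.15%). Ngp was not tested, and among the 8 genes tested the day 0 count was 1. None of the 8 genes tested passed a test of the arms or of the days after adjustment over all genes. The plot of signal on each array shows these levels.

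**Figure D1:**
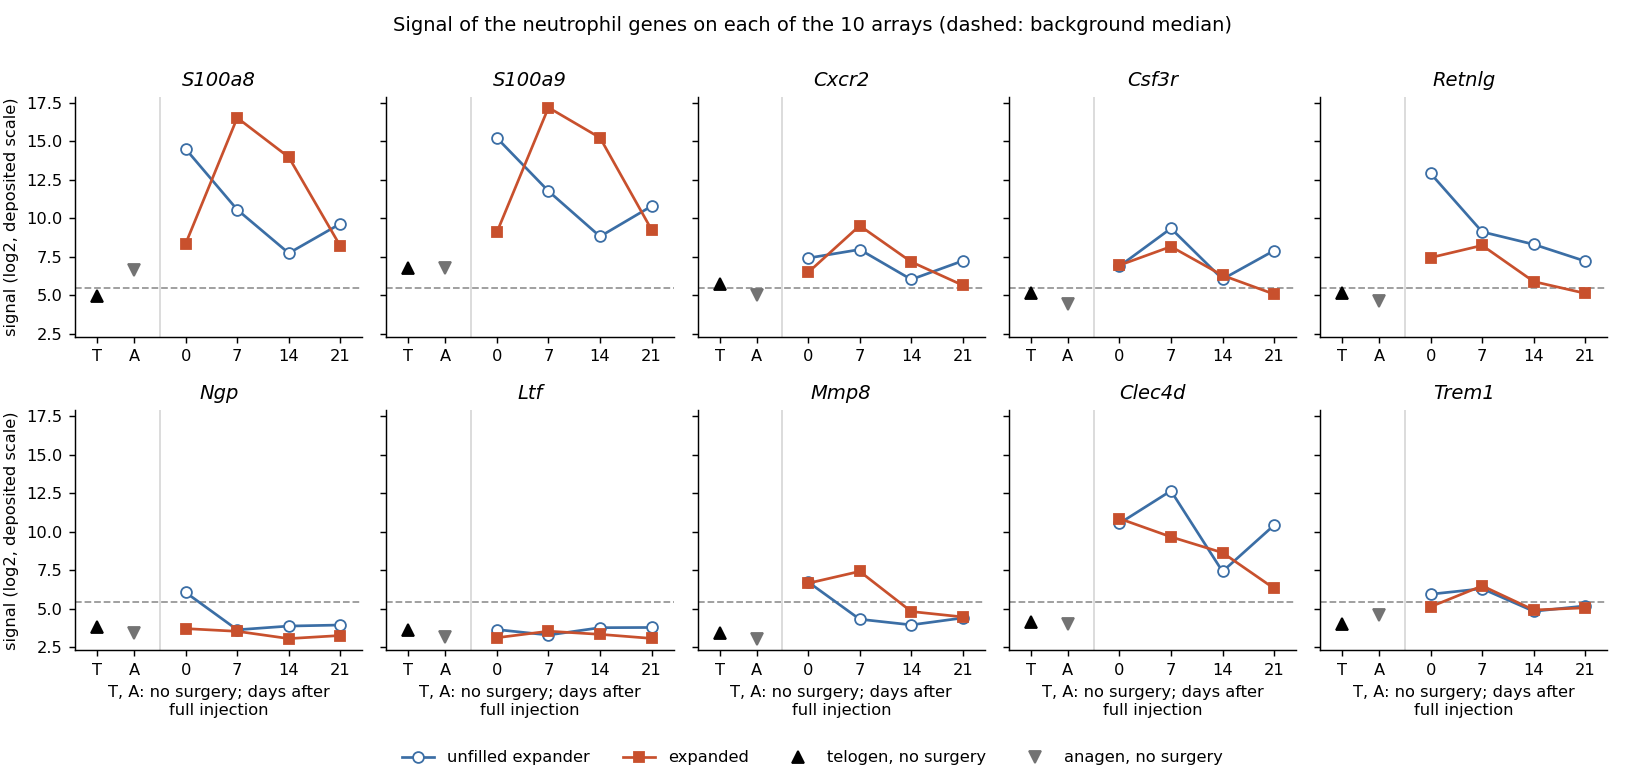
Signal of each gene (log2, deposited scale, same axis in every panel) for skin without surgery in telogen (T) and anagen (A), and by day after full injection for non-expanded (open circles) and expanded (squares) skin, with 1 array per point and the background median of 5.46 dashed. S100a8 and S100a9 peak in expanded skin at day 7, Retnlg in non-expanded skin at day 0 and Clec4d in non-expanded skin at day 7, while Ltf stays under background on all 10 arrays.

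S100a8 and S100a9 encode calcium-binding proteins that pair to form calprotectin, the main protein of the neutrophil cytosol, which starves microbes of metal ions and signals inflammation. S100a8 (chromosome 3, 90669071 to 90670034, mm10) read 14.49, 10.55, 7.73 and 9.64 in non-expanded skin and 8.34, 16.51, 13.95 and 8.18 in expanded skin at days 0, 7, 14 and 21. The telogen and anagen arrays read 4.97 and 6.60. Expanded skin at days 7 and 14 and non-expanded skin at day 0 were thus the highest, both arrays without surgery were the lowest, and the arms overlapped. S100a9 (chromosome 3, 90692630 to 90695721) read 15.20, 11.75, 8.81 and 10.78 in non-expanded and 9.08, 17.17, 15.21 and 9.24 in expanded skin, against 6.78 in telogen and 6.75 in anagen. Its 3 highest arrays were the same as those of S100a8, a set shared by 1.57% of all genes tested. In both genes only 1 of the 9 steps between neighbouring arrays, in order of level, exceeded the residual SD of the fit of all arrays (3.33 for S100a8 and 3.23 for S100a9). That step separated the 3 highest arrays from non-expanded skin at day 7.

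The promoters of S100a8 and S100a9, whose levels moved together over the arrays, and of Retnlg and Clec4d, which each peaked on a different array, are shown as the 250 bases before the start of each gene (RefSeq, GRCm38.p6). All 10 genes had an entry. Capitals mark matches, on either strand, to TTGCNNAA, a core of the sites of C/EBP factors, or to GAGGAA, a core of the sites of PU.1; both kinds of factor direct the making of neutrophils. The windows are S100a8 at chr3:90668821-90669070 (plus strand), S100a9 at chr3:90695722-90695971 (minus strand), Retnlg at chr16:48872358-48872607 (plus strand) and Clec4d at chr6:123261857-123262106 (plus strand).
S100a8: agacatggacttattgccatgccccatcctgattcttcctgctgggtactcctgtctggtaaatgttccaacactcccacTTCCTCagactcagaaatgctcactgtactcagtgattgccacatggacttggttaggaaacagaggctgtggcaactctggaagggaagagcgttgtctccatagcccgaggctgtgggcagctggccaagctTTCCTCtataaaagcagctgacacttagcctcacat
S100a9: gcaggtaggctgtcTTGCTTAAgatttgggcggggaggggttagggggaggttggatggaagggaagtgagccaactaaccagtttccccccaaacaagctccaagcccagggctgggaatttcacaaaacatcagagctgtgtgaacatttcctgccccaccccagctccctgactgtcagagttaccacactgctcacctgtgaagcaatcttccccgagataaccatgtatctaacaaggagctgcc
Retnlg: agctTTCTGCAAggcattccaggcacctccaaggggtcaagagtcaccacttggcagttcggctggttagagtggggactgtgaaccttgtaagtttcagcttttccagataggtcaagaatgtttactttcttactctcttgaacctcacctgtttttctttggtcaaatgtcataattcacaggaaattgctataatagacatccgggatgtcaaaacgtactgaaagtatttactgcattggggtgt
Clec4d: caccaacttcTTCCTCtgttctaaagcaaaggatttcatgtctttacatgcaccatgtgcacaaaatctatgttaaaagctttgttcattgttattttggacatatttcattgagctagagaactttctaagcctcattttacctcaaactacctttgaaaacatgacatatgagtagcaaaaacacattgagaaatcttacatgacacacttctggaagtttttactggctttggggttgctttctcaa
S100a8 held GAGGAA at 170 and 36 bases before the start and no TTGCNNAA. S100a9 held TTGCNNAA at 236 bases and no GAGGAA, so this pair shared no match in these windows. Retnlg held TTGCNNAA at 246 bases and Clec4d GAGGAA at 240 bases. Over all 10 genes, TTGCNNAA was found in 5 (S100a9, Retnlg, Ngp, Ltf and Mmp8), against 9.56% of the 32851 windows of the same length. GAGGAA was found in 7 (S100a8, Cxcr2, Csf3r, Ltf, Mmp8, Clec4d and Trem1), against 23.3%. The Csf3r window, chr4:126024409-126024658, lies inside the gene span given below. The Trem1 window, chr17:48232489-48232738, runs past the gene start given below, 48232713. TGANTCA, the site of the stress factor AP-1, was found in none, against 6.75%. The motifs were chosen after other spellings had been searched, the first 2 do not overlap in any of the 10 windows, and a match is only a run of letters.

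Between the arms, S100a8 differed by -6.15 at day 0, 5.96 at day 7, 6.22 at day 14 and -1.46 at day 21 (expanded minus non-expanded). S100a9 differed by -6.12, 5.42, 6.40 and -1.54. Opposite signs on different days left an average near 0 relative to its error. The S100a8 mean of the 4 filled-expander arrays was 11.74 ± 4.16 (SD) and that of the 4 unfilled-expander arrays 10.60 ± 2.85, a difference of 1.14 ± 2.05 (SE, limma adjusted p = 0.889). For S100a9 the averages were 12.68 ± 4.14 and 11.64 ± 2.67, and the difference was 1.04 ± 2.02 (limma adjusted p = 0.901). Without day 7 or day 14 the S100a8 difference turned to -0.46 or -0.55, and that of S100a9 to -0.42 or -0.74, so the direction of the average rested on those arrays.

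Markers of stressed epidermis were highest on the same 3 expander arrays as S100a8 and S100a9, and muscle markers were low on 2 of them. Of 18 stressed keratinocyte genes, 16 had a named probe set (Krt6a and Krt6b did not) and 13 were tested. The mean of the 16 was 10.64 and 8.71 in expanded skin at days 7 and 14 and 8.74 in non-expanded skin at day 0. On the other expander arrays it lay from 5.75 to 7.00, in telogen at 5.93 and in anagen at 8.51. Of the 13 tested, 7 (Krt16, Sprr1b, Sprr2d, Defb3, Defb4, Serpinb3a and Klk6) shared the 3 highest arrays of S100a8 and S100a9, against 1.57% of all genes tested. Krt16, a keratin of wounded epidermis, read 12.96, 6.63, 6.78 and 5.99 in non-expanded and 10.39, 16.16, 13.84 and 9.13 in expanded skin. Its arms differed by 4.29 ± 1.80 (limma adjusted p = 0.571). All 13 were higher in expanded than in non-expanded skin, with a median of 1.78, while 6 of the 13 were higher over the unfilled expander than without surgery, with a median of -0.33. Of all genes 52.5% were higher between the arms and 50.7% over the unfilled expander. None passed between the arms in limma, and 2, the growth factor gene Hbegf and the keratin Krt17, had an unadjusted limma p under 0.05, at 1.78 ± 0.31 and 1.91 ± 0.51. At that level, 8.8% of all genes differed in either direction. Without day 7 the Krt16 and Krt17 differences were 2.54 and 1.26. On the anagen array the stressed keratinocyte mean was high while S100a8 read 6.60 and S100a9 6.75. The list was uneven there, with S100a7a at 14.71, Gjb2 at 14.11 and Gjb6 at 11.71. Of the 7 genes above, Defb3, Defb4, Serpinb3a and Sprr2d read 4.02, 4.76, 5.76 and 6.11 in anagen. Sprr1b, Krt16 and Klk6 read 8.31, 8.67 and 11.01. Skeletal muscle markers, from the thin muscle sheet under the skin, had means of 12.61 and 12.93 in expanded skin at days 7 and 14, against 15.14 to 15.48 on the other expanded arrays and 15.80 to 16.50 on the non-expanded arrays (16.03 at day 0), 17.22 in telogen and 13.38 in anagen. The part of stressed epidermis or of muscle content in the S100a8 and S100a9 levels was not tested.

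**Figure D2:**
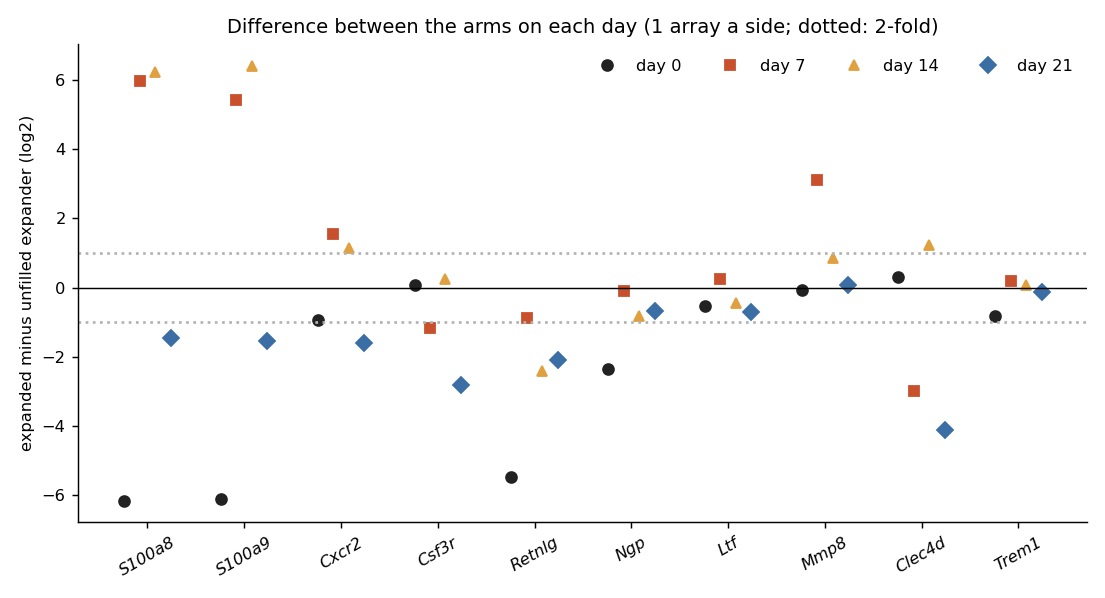
Difference between expanded and non-expanded skin (log2, vertical axis) for each gene on each day, with 1 array a side and no error, and with 2-fold marked by dotted lines. S100a8 and S100a9 lie near -6 at day 0 and above 5 at days 7 and 14, and no gene lies more than 2-fold above 0 at days 0 and 21.

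Counted over single days, expanded skin was at least 2-fold lower for 4 of the 10 genes at day 0 (S100a8, S100a9, Retnlg and Ngp), against 6.18% of genes tested. Ngp was not tested, and among the 8 that were the count was 3. At day 0 expanded skin was at least 2-fold higher for none, against 9.49%. At day 7 it was higher for S100a8, S100a9, Cxcr2 and Mmp8 (4 of 10, against 8.45%) and lower for Csf3r and Clec4d (2 of 10, against 9.43%). At day 14 S100a8, S100a9, Cxcr2 and Clec4d were higher (4 of 10, against 11.4%) and Retnlg lower (1 of 10, against 8.85%). At day 21 it was lower for 6, namely S100a8, S100a9, Cxcr2, Csf3r, Retnlg and Clec4d, against 6.13%, and higher for none, against 6.69%. These are single pairs of arrays with no replicate check. The arms did not separate fully for any of the 10 genes, while 4.83% of genes tested did.

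The 2 receptors that guide and sustain neutrophils spanned a smaller range than S100a8 and S100a9. Cxcr2, the receptor for neutrophil chemokines (chromosome 1, 74153994 to 74161246), read 7.41, 7.96, 6.02 and 7.23 in non-expanded and 6.48, 9.51, 7.16 and 5.64 in expanded skin at days 0, 7, 14 and 21. Telogen read 5.70 and anagen 5.01. Expanded skin at day 7 was highest, and expanded skin at day 21 lay between telogen and anagen. Over the 4 days the mean was 7.20 ± 1.66 (SD) when expanded and 7.16 ± 0.82 when not, a difference of 0.04 ± 0.56 (SE, limma adjusted p = 0.988) that turned to -0.46 without day 7 and -0.32 without day 14. Csf3r, the G-CSF receptor (chromosome 4, 126023441 to 126044975), read 6.88, 9.33, 6.04 and 7.89 in non-expanded and 6.94, 8.15, 6.29 and 5.07 in expanded skin, against 5.15 in telogen and 4.41 in anagen. Day 7 was highest in both arms, and expanded skin at day 21 and both arrays without surgery were under background. None of the steps between neighbouring arrays of Csf3r exceeded its residual SD of 1.27. The arms averaged 6.61 ± 1.29 (expanded) and 7.54 ± 1.42, a difference of -0.92 ± 0.52 (limma adjusted p = 0.662), or -0.29 without day 21.

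Retnlg, which encodes a small secreted protein of the resistin family made by neutrophils (chromosome 16, 48872608 to 48874498), was highest in non-expanded skin at day 0. It read 12.90, 9.11, 8.30 and 7.21 in non-expanded and 7.44, 8.23, 5.88 and 5.12 in expanded skin, against 5.14 in telogen and 4.61 in anagen. Non-expanded skin read lower at each later day, an order that was not counted over all genes. Expanded skin at day 21 and both arrays without surgery were under background, so these 3 have no order. Of the 9 steps between neighbouring arrays, only that from non-expanded day 0 to day 7 exceeded the residual SD of 1.87. Expanded skin was lower at all 4 days, by 5.46, 0.88, 2.41 and 2.09, a pattern shared by 8.1% of genes tested. Its fitted difference, -2.71 ± 0.69 (SE), had a limma adjusted p of 0.37. Of the 8 genes it alone had an unadjusted p under 0.05, where 3.98% of all genes were lower at that level. Without day 0 the Retnlg difference was -1.79.

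Of the granule genes among the 10, Ltf was under background on every array, Ngp on 9 and Mmp8 on 7. Mmp8, the neutrophil collagenase (chromosome 9, 7558429 to 7568486), read 6.74, 4.32, 3.96 and 4.41 in non-expanded and 6.66, 7.43, 4.82 and 4.47 in expanded skin, with telogen at 3.44 and anagen at 3.02. It was above background on 3 arrays only, those of day 0 in both arms and of day 7 in expanded skin. Its difference between the arms was 0.99 ± 0.54 (limma adjusted p = 0.653), and 0.28 without day 7. Ngp, a protein of the specific granules (chromosome 9, 110419808 to 110423012), read 6.06 in non-expanded skin at day 0 and from 3.07 to 3.95 on the other 9 arrays. Ltf, which encodes the iron-binding protein lactoferrin of the same granules (chromosome 9, 111019292 to 111042766), read from 3.08 to 3.79 and was under background on all 10 arrays. Of 16 further granule and oxidase genes, 15 had a named probe set. Prtn3, Ctsg, Camp, Fcnb and Pglyrp1, most of them transcribed in marrow precursors, were under background on every array. Lcn2, which encodes a siderophore-binding granule protein that keratinocytes also make, read 14.48, 8.75, 7.58 and 12.92 in non-expanded and 9.80, 14.86, 12.12 and 9.73 in expanded skin, with 7.19 in telogen and 6.85 in anagen. It is named after its values were seen.

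Clec4d, a C-type lectin receptor for microbial glycolipids on neutrophils and macrophages (chromosome 6, 123262107 to 123275268), had, of the 8 genes tested, the widest gap between expander arrays and skin without surgery relative to its error. It read 10.54, 12.65, 7.42 and 10.42 in non-expanded and 10.85, 9.66, 8.64 and 6.32 in expanded skin, against 4.11 in telogen and 4.02 in anagen. Levels without surgery were under background. Of the 9 steps between neighbouring arrays, only that from the lowest expander array to telogen exceeded the residual SD of 1.89. In expanded skin the level was lower at each later day, with 1 array a day and no count of this order over all genes. Expanded skin averaged 8.87 ± 1.92 and non-expanded skin 10.26 ± 2.15 (SD over the days, 1 array each). The difference was -1.39 ± 0.89 (SE, limma adjusted p = 0.694), or -0.48 without day 21. Trem1, a receptor that amplifies inflammatory signals in neutrophils and monocytes (chromosome 17, 48232713 to 48246927), read 5.95, 6.30, 4.84 and 5.19 in non-expanded and 5.13, 6.49, 4.92 and 5.06 in expanded skin, with telogen at 4.03 and anagen at 4.62. Only 3 arrays, non-expanded days 0 and 7 and expanded day 7, were above background. The Trem1 arms differed by -0.17 ± 0.25 (limma adjusted p = 0.87), and by 0.0482 without day 0.

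Among the 8 genes tested, 4 were higher and 4 lower in expanded than in non-expanded skin, with a median difference of -0.06, against 52.5% of all genes higher and a median of 0.02. The median of the 8 ran from -0.65 to 0.21 with each day left out in turn. None passed between the arms, where limma called 0.0% of genes (0 of 13653, lowest adjusted p = 0.221, with 1202 or 8.8% at an unadjusted p under 0.05).

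On both arrays without surgery Csf3r, Retnlg, Mmp8, Clec4d and Trem1 were under background, as were Cxcr2 in anagen and S100a8 in telogen, so the size of these differences depends on the background level. Against skin without surgery, all 8 genes tested were higher over the unfilled expander, with a median difference of 3.63, against 50.7% of all genes higher and a median of 0.01. The filter took the mean of all 10 arrays. Without surgery Mmp8, Clec4d, Trem1 and Csf3r averaged 3.23, 4.065, 4.33 and 4.78, under its level of 4.86. These genes entered the tests only through their expander arrays, so the filter in part set this count. Ngp and Ltf, left out by the filter, differed by 0.77 ± 0.59 and 0.23 ± 0.25 (SE) in a fit without it. The lists below were filtered in the same way. None of the 8 passed an adjusted p of 0.05, as limma called 0.0% of all genes (0 of 13653, lowest adjusted p = 0.0646, with 2144 or 15.7% at an unadjusted p under 0.05). Clec4d differed by 6.19 ± 1.37 (SE, limma adjusted p = 0.0894), Retnlg by 4.51 ± 1.36 (0.165), Csf3r by 2.76 ± 0.94 (0.207) and Trem1 by 1.24 ± 0.53 (0.295). These 4 had an unadjusted limma p under 0.05, where 9.42% of all genes were higher at that level. S100a8 and S100a9 differed by 4.81 ± 2.39 and 4.87 ± 2.32 (limma adjusted p = 0.36 and 0.341), Cxcr2 by 1.80 ± 0.91 (0.366) and Mmp8 by 1.63 ± 0.93 (0.426). Without the day 0 array of non-expanded skin the Mmp8 difference was 0.999. The Clec4d difference passed without the day 14 array of non-expanded skin (7.14, adjusted p = 0.0386) or without the telogen array (6.24, adjusted p = 0.0414), which leaves anagen as a lone array assumed to vary like the others. Without the anagen array it was 6.15 (adjusted p = 0.239). Of all 13653 genes, 112 were called without the day 14 array and 2645 without telogen.

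Expanded skin set against the same telogen and anagen arrays gave a median of 2.23 for the 8 genes, all of them higher, against 0.01 over all genes, of which 50.6% were higher. The filter in part set this count too. In a fit without it Ngp and Ltf differed by -0.21 ± 0.59 and -0.13 ± 0.25 (SE). With the filter limma called 65 of 13653 genes (0.476%) and none of the 8, with 2234 genes or 16.4% at an unadjusted p under 0.05. Clec4d differed by 4.81 ± 1.37 (limma adjusted p = 0.124), S100a8 by 5.96 ± 2.39 (0.251), S100a9 by 5.91 ± 2.32 (0.241) and Mmp8 by 2.61 ± 0.93 (0.198). These 4 had an unadjusted limma p under 0.05, where 10.7% of all genes were higher at that level. Csf3r differed by 1.84 ± 0.94, Cxcr2 by 1.84 ± 0.91, Retnlg by 1.80 ± 1.36 and Trem1 by 1.07 ± 0.53, with limma adjusted p from 0.349 to 0.569. Without the day 7 array of expanded skin the Cxcr2 and Trem1 differences were 1.07 and 0.71. Both comparisons share the telogen and anagen arrays, so their values only stand side by side. The group without surgery holds 2 arrays that differ in hair stage, and anagen was at least 2-fold higher than telogen for S100a8 alone among the 10, by 1.63, against 23.5% of genes tested, and at least 2-fold lower for none, against 20.4%.

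**Figure D3:**
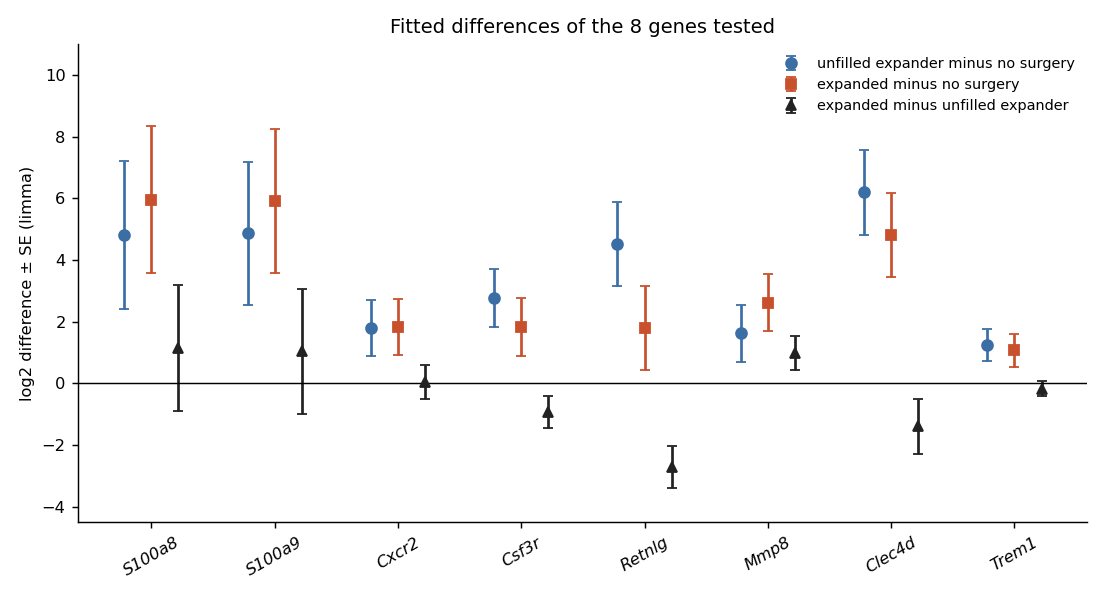
Fitted log2 difference with its SE for the 8 genes tested: non-expanded minus no surgery (circles), expanded minus no surgery (squares) and expanded minus non-expanded (triangles). All 8 lie above 0 in both comparisons with skin without surgery, and only Retnlg lies more than 2 below 0 between the arms. The level filter used the mean of all arrays, so it in part set which genes are shown.

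Straight lines over the days, given as the change from day 0 to day 21, sloped down for all 8 genes in both arms. The medians were -1.85 in expanded and -1.94 in non-expanded skin, while 50.8% and 50.3% of all genes sloped up. The Csf3r slope in non-expanded skin was only -0.07 ± 1.45 (SE), and turned to 0.69 without day 7 and 0.56 without day 14. None of the 8 passed in either arm, where limma called 0.0% of genes (0 of 13653 in each, with 339 or 2.48% and 495 or 3.63% at an unadjusted p under 0.05). In non-expanded skin Retnlg changed by -5.37 ± 1.05 per 21 days (SE, limma adjusted p = 0.991). It was the only 1 of the 8 at an unadjusted p under 0.05, where 1.64% of all genes sloped down at that level. Its slope was -2.85 without day 0. In expanded skin Clec4d changed by -4.39 ± 1.78, Retnlg by -2.79 ± 1.05 and Mmp8 by -2.75 ± 1.05 (limma adjusted p = 1.00 for each). Without day 0 the Retnlg and Mmp8 slopes were -4.67 and -4.43. Clec4d, Retnlg and Mmp8 had an unadjusted p under 0.05, where 1.3% of all genes sloped down at that level. The S100a8 and S100a9 slopes, -0.91 ± 3.82 and -0.44 ± 3.79 in expanded skin, turned to 8.42 and 9.20 without day 21 and were -12.49 and -11.90 without day 0. None of the slope differences between the arms passed (0 of 8 and 0.0% of all genes in limma, lowest adjusted p = 0.9995), and 166 genes or 1.22% had an unadjusted p under 0.05, none of them among the 8. Of the 8 genes tested, 6 had their lowest expanded array at day 21, against 29.6% of all genes tested. Among them Mmp8 was under background at days 14 and 21 (4.82 and 4.47), so these have no order. S100a8 read 8.18 at day 21 and 8.34 at day 0, apart by far less than its residual SD of 3.33.

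Signals that draw neutrophils and the vessel molecules they hold on to also read higher over the unfilled expander than without surgery. Of 13 genes for attracting and survival signals, 8 were tested and all 8 were higher over the unfilled expander than without surgery, with a median of 2.29. Of all genes 50.7% were higher. None of the signal genes passed in limma. Where 9.42% of all genes were higher at an unadjusted p under 0.05, 3 of the 8 signal genes were. They were Il1b, which encodes the cytokine interleukin 1 beta, at 3.57 ± 0.85 (limma adjusted p = 0.103), and the Cxcr2 ligands Cxcl2 and Cxcl1, at 2.96 ± 0.91 (0.168) and 1.90 ± 0.85 (0.317). Cxcl1 read 8.98 in non-expanded skin at day 0 and from 4.45 to 6.04 on the other arrays. Cxcl5, a further Cxcr2 ligand, was highest in non-expanded skin at day 7, at 11.53, and read 7.88 at day 0 there and at day 7 in expanded skin. Csf3r and Clec4d also read highest in non-expanded skin at day 7, by less than their residual SDs. Csf3 was above background on 1 array, non-expanded skin at day 0, at 5.92, the array where Retnlg and Ngp peaked. The gene of its receptor, Csf3r, read 6.88 there and 9.33 on its highest array, non-expanded skin at day 7. Csf3 is named after its values were seen. Ppbp, Csf2, Il17a and Il17c were under background throughout. Between the arms, 1 of the 8 was higher, against 52.5% of all genes. The median of the 8 was -0.37 and none passed, with none at an unadjusted p under 0.05. Of 6 endothelial adhesion genes tested, 5 were higher over the unfilled expander, against 50.7% of all genes, and none passed. P-selectin (Selp) differed by 3.21 ± 0.68 (limma adjusted p = 0.0816), by 4.06 without the telogen array and by 2.35 without the anagen array. Cd99l2, which encodes an adhesion protein of vessel walls, was lower, at -1.004 ± 0.57 (0.421). It was -2.29 without telogen, while against telogen only it was 0.29. Vcam1 differed by 2.61 ± 0.68 (0.118) and Icam1 by 0.96 ± 0.28 (0.158).

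Further genes of the neutrophil surface and cytosol, none of them among the 10, were counted in the same contrast. Of 24, 19 had a named probe set and 17 were tested. Ly6g, the antigen that defines mouse neutrophils, was not among the named probe sets, and Cd177 was under background on all arrays. All 17 were higher over the unfilled expander than without surgery, with a median of 1.89, against 50.7% of all genes higher. None passed, and 9 had an unadjusted limma p under 0.05, against 9.42% of all genes higher at that level. Fcgr3, an antibody receptor, and Itgam and Itgb2, the chains of the integrin CD11b/CD18, differed by 4.15 ± 0.81, 4.66 ± 0.97 and 4.23 ± 1.06 (limma adjusted p = 0.0739, 0.0784 and 0.112). Macrophages make all 3. Without the telogen array Fcgr3 and Itgam differed by 5.26 and 4.80, and without the anagen array by 3.05 and 4.52. Without the day 14 array of non-expanded skin both passed (limma adjusted p = 0.0386 for both), where 112 of all 13653 genes passed. Clec4e, a lectin receptor related to Clec4d, differed by 4.26 ± 1.33 (0.172). The stefin genes Stfa1, Stfa2, Stfa2l1 and Stfa3, close copies whose probe sets may share signal, encode protease inhibitors of neutrophils and epidermis. All 4 had the 3 highest arrays of S100a8 and S100a9, with Stfa3 at 14.28, 15.54 and 12.44 there and from 5.63 to 9.00 elsewhere. Among the 10 granule and oxidase genes tested, 9 were higher over the unfilled expander (median 1.71), against 50.7% of all genes, and none passed. The oxidase genes Cybb, Ncf1, Ncf4 and Cyba were the 4 with an unadjusted limma p under 0.05, against 9.42% of all genes higher at that level. Of the 10, Prtn3 was under background on all 10 arrays, and Mpo and Elane on 8 each. Cybb and Ncf1, of the oxidase that neutrophils and macrophages share, differed by 5.03 ± 0.99 and 4.95 ± 0.99 (limma adjusted p = 0.0739 for both). Without the telogen array they differed by 5.59 and 5.05, and without the anagen array by 4.47 and 4.85. They also passed without the day 14 array of non-expanded skin (limma adjusted p = 0.0386 for both).

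In expanded skin against no surgery, 17 of the 17 surface and cytosol genes, 8 of the 10 granule and oxidase genes and 8 of the 8 signal genes were higher, with medians of 2.02, 1.74 and 1.27. Of all genes 50.6% were higher. None of the listed genes passed, and 6, 5 and 2 of them had an unadjusted limma p under 0.05, against 10.7% of all genes higher at that level.

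Macrophage and monocyte markers also read higher over the unfilled expander. Of 15 macrophage and monocyte markers, 13 were tested and all 13 were higher over the unfilled expander than without surgery, with a median of 3.36. Each had an unadjusted limma p under 0.05 and none passed after adjustment. Of all genes 50.7% were higher, and 9.42% were higher at that unadjusted level. The macrophage values follow. The list mean ranged from 10.94 to 13.28 in non-expanded skin, from 10.91 to 12.58 in expanded skin and from 8.37 to 9.68 without surgery. It was highest in non-expanded skin at day 7, the array where Clec4d and Csf3r were highest by less than their residual SDs. No macrophage marker was under background on every array. The monocyte receptor gene Cd14 and the lysozyme gene Lyz2 differed by 4.18 ± 0.62 and 4.48 ± 0.75 (limma adjusted p = 0.0646 and 0.0731). With each array left out in turn these differences ran from 3.71 to 4.65 and from 3.15 to 5.82. Both passed without the day 14 array of non-expanded skin (limma adjusted p = 0.0386 for both), where 112 of all 13653 genes passed. Cd14 was also called in expanded skin against no surgery, the only gene of these lists that was. Markers of all leukocytes had list means of 9.77 to 11.47, 9.53 to 11.02 and 7.10 to 8.81 in the same groups. The part of macrophages in the Clec4d, Csf3r and Trem1 levels was not tested. Red blood cell markers, 2 of 7 with a named probe set and neither a globin, had means of 6.72 to 7.30 in non-expanded, 6.62 to 7.33 in expanded and 7.17 to 7.64 without surgery, with the ranges over the expanders reaching lower than those without surgery. Of 5 eosinophil markers, 4 were under background on every array. Mast cell means ran from 8.29 to 9.34 over the expanders and from 7.41 to 7.79 without surgery, T cell means from 6.29 to 6.95 and from 5.63 to 6.67, and platelet means from 6.71 to 7.18 and from 5.76 to 7.07.

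**Figure D4:**
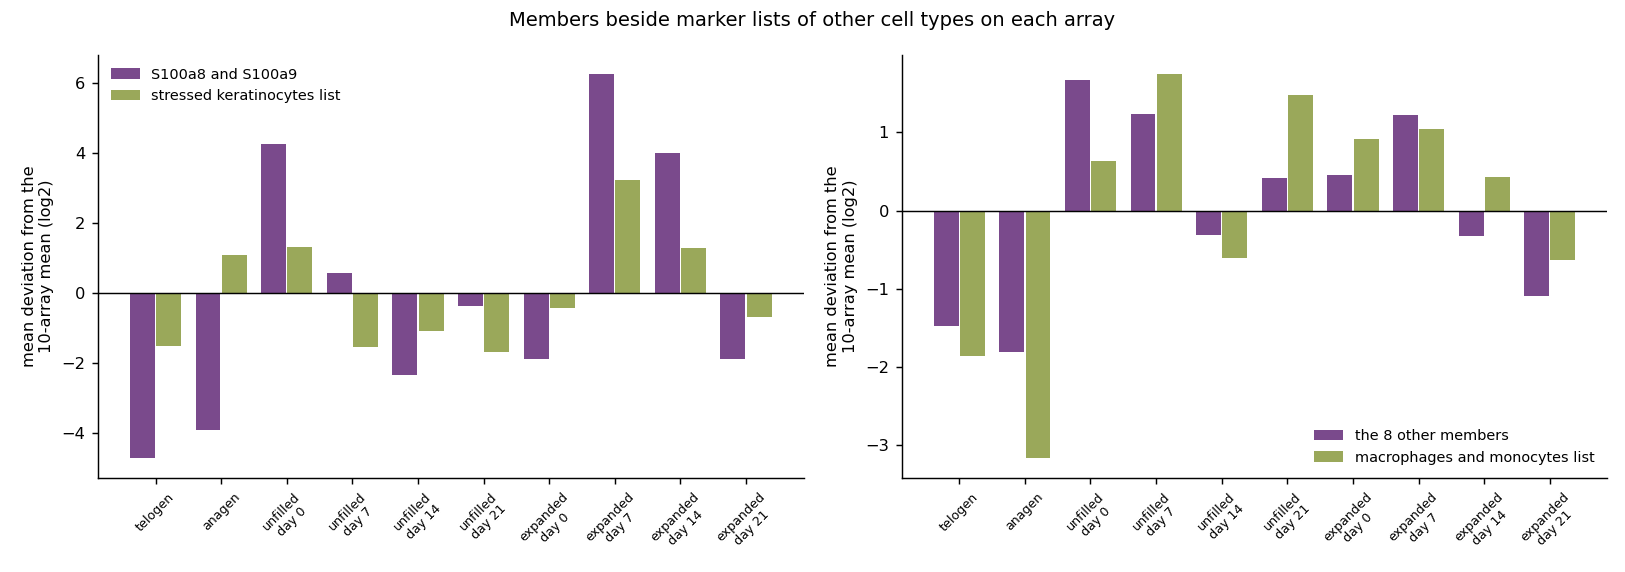
Mean deviation of each array from the mean of all 10 (log2, vertical axis) for S100a8 and S100a9 beside the stressed keratinocyte list (left), and for the 8 other genes, Ngp and Ltf included, beside the macrophage and monocyte list (right); the vertical scales of the panels differ. S100a8 and S100a9 reach 6.25 in expanded skin at day 7, where the keratinocyte list is also highest, while on the anagen array the keratinocyte list is above its mean and S100a8 and S100a9 are 3.91 below theirs. The list is uneven on the anagen array, with S100a7a at 14.71 and Defb3 at 4.02.

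The genes most like the neutrophil genes over the 10 arrays were found by Pearson's r, as a description, since the arrays share arms and days. To the mean deviation of the 8 genes other than S100a8 and S100a9, the nearest were Milr1 (r = 0.97), Cxcl2 (0.96), Saa3 (0.95), Npc2 (0.95) and Snx5 (0.95). Milr1 encodes a receptor of mast cells and other myeloid cells, and Saa3 an acute phase protein. Saa3 read 17.46, 17.17, 6.98 and 15.93 in non-expanded and 14.07, 16.51, 11.18 and 6.81 in expanded skin, against 5.75 in telogen and 5.41 in anagen. It was thus low in non-expanded skin at day 14 and in expanded skin at day 21, where Cxcr2 and Csf3r had the lowest values of their arms. To S100a8 and S100a9 the nearest were Stfa3 (0.93), Sprr2i (0.92), Chil1 (0.92), Sprr2j-ps (0.92) and Tmem125 (0.91). Sprr2i belongs to the small proline-rich proteins of the epidermal envelope, and Chil1 encodes a chitinase-like protein. Chil1 read 11.90 in non-expanded skin at day 0, 15.09 and 13.70 in expanded skin at days 7 and 14, and from 5.99 to 8.91 on the other arrays.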

How the data were processed

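Signals were read from the deposited table, which holds log2 values of 28846 probe sets on 10 arrays; per the labels' protocols, whole-skin RNA was biotin-labelled with the Affymetrix WT PLUS kit. Log base, background correction and normalization are not given in the sources used here, and log2 was inferred because signals run between 1.88 and 19.88. Differences may be stretched, since 586 probe sets pass 16, the most that a 16-bit scan can give on a log2 scale. The submitters' processing notes name mm10. GEO's platform annotation gave 19572 probe sets 1 symbol each, 9243 none, and 31 were controls. The probe set with the highest mean stood for a gene, and genes with a mean under the 30th percentile (4.86) were left out.

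Differences were fitted with limma 3.58.1 in R 4.3.3 (two-sided, Benjamini-Hochberg over 13653 genes, threshold 0.05). The arms were compared with day as a block (3 residual degrees of freedom), because the time points are numbered alike in both arms. Same-day deviations from the arm means correlated at -0.13, -0.17, -0.10 and 0.36, so the pairing rests on the labels. Skin without surgery was compared in a fit of all 10 arrays with no term for day (7 degrees of freedom), and slopes over days by arm (4 degrees of freedom). Code was tested on simulated data. The genes and lists were chosen with earlier results of these data known. The rule for naming takes the 10 genes always, up to 4 genes of a list by unadjusted p, and the 5 most alike by r. Other scalings, filters, designs and left-out arrays were tried. The number of arrays limits the precision.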

Additional observations from a re-analysis of the deposited data

Results flagged for a closer look

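In non-expanded skin the array of day 0 stood far above the other 3 for Ngp, at 6.06, and for Mmp8, at 6.74. In expanded skin the array of day 7 stood far above the others for Trem1, at 6.49. These 3 came from 20 groups of 4 arrays (10 genes in 2 arms), and chance alone flags about 1 group in 20. The arrays of a group lie at different days.

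The arms differed by at least 2-fold in opposite directions on different days for 4 genes, and with 1 array a side on each day the change of direction was not tested. The expanded minus non-expanded difference of S100a8 was 6.22 at day 14 and -6.15 at day 0, and that of S100a9 was 6.40 and -6.12 on the same days. Cxcr2 differed by 1.55 at day 7 and -1.59 at day 21. Clec4d differed by 1.22 at day 14 and -4.10 at day 21.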

How the results depend on the processing

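Of 456 values of single genes under other scalings, filters, probe set choices, variance models, designs or references, 455 kept their direction; Cd99l2 turned to 0.29 over the unfilled expander against telogen only. Another 13 newly passed, with anagen as the only reference, among them Clec4d at 6.24. Called genes numbered 2 between the arms without the replicate block and 1 with all 10 arrays and no replicate block, none of them among the 8 genes, and the block changed no call of a neutrophil gene. Against anagen only, 2645 genes were called over the unfilled expander and 1850 in expanded skin, where the difference between telogen and anagen no longer enters the spread and the lone anagen array is assumed to vary like the others. Expanded skin against no surgery gave 33 with no filter. With each day or array left out in turn, the counts ran from 0 to 1 between the arms, 0 to 2645 over the unfilled expander and 5 to 1850 in expanded skin against no surgery. Of 360 single-gene values so obtained, 25 turned and 22 newly passed. The ranges of those that turned follow. Between the arms they were -0.55 to 3.58 for S100a8, -0.74 to 3.43 for S100a9, -0.46 to 0.59 for Cxcr2 and -0.28 to 0.0482 for Trem1. Slopes in expanded skin were -12.49 to 8.42 for S100a8, -11.90 to 9.20 for S100a9 and -5.80 to 1.03 for Cxcr2. In non-expanded skin they were -2.16 to 0.69 for Csf3r and -4.18 to 0.13 for Mmp8. Slope differences were -11.13 to 18.56 for S100a8, -10.44 to 18.79 for S100a9, -4.70 to 3.11 for Cxcr2, -2.83 to 0.27 for Csf3r, -1.81 to 4.57 for Retnlg, -4.56 to 1.42 for Mmp8, -4.02 to 1.36 for Clec4d and -0.46 to 1.35 for Trem1. Cd99l2 ran from -2.29 to 0.29 over the unfilled expander. The cause of these changes was not tested. Signals under background limit Ltf on all 10 arrays, Ngp on 9, Mmp8 and Trem1 on 7 arrays each, Csf3r and Retnlg on 3, Clec4d on 2, and Cxcr2 and S100a8 on 1.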
